A study of Mus musculus with 2 samples.

Results

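The interval described here lies in the middle of the mouse immunoglobulin heavy chain (Igh) locus and holds approximately the DH gene segments, the CTCF-bound control region IGCR1 and the stretch up to the first VH genes. It was defined by position, as the HindIII fragments on chromosome 12 (mm9) whose midpoint lay at or above 114671000 and below 114815000, a window of 144 kb. It held 10 of the 206 assayed fragments, and 1016 of the 10584 primer pairs had at least 1 end in it. Contacts were measured by 5C, in which fixed chromatin is cut with HindIII and ligated, and chosen ligation products are amplified with a forward primer on one fragment and a reverse primer on the other. The counts came from 2 libraries of resting splenic B cells of C57Bl/6 mice, sorted with magnetic beads as CD43-negative cells and labelled unstimulated. They form 1 group with no other condition, genotype or agent, and the series describes them as biological replicates. No expression was measured, so the labelled cell type could not be set against marker genes.

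An antibody heavy chain is assembled from gene segments in an ordered way: a DH segment is joined to a JH segment, and a VH segment is then joined to the DJH product. IGCR1 lies between the VH and DH segments, carries CTCF-bound elements and is known for keeping the nearest VH genes from joining too early. In the RefSeq table of assembly GRCm38, used here for gene order only, 22 genes lie between the JH segment Ighj1 and the VH segment Ighv5-1: 10 DH segments, 10 DH pseudogenes and the protein-coding genes Adam6b and Adam6a. Recombination deletes the DNA between the joined segments, so a mature B cell may lack some or all of this interval on either or both alleles. Copy number was not measured in these libraries. Fewer copies of the interval and fewer contacts per copy therefore cannot be told apart in any value below. On an allele with such a deletion, constant-side and VH-side fragments on either side of it also lie closer together than in mm9. All distances here are those of mm9, and the deletions were not measured. No fragment was assigned to a single gene, because no annotation of mm9 was used here.

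The fragments are named by primer type and number, F for forward and R for reverse, and are given from the JH end to the VH end. F84 ran from 114670120 to 114672758, R85 from 114672759 to 114675715, F86 from 114675716 to 114676753, and R90 from 114679904 to 114686567. F91 ran from 114686568 to 114691293 and R94 from 114722112 to 114723013. F103 ran from 114747437 to 114750051, R106 from 114751970 to 114755042, F115 from 114778143 to 114787052 and F117 from 114791568 to 114794187. The first 5 fragments thus crowd into the lowest part of the window, and its upper part is covered by few. A forward fragment was assayed against 108 reverse fragments and a reverse fragment against 98 forward ones. Partners below the window are called the constant side (55 fragments, 274 of the pairs), because the constant-region and JH genes lie that way. Partners above it are called the VH side (141 fragments, 718 pairs), and 24 pairs had both ends inside.

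Replicate 1 held 16067416 counts in all and replicate 2 held 15096402. The interval took part in 9.60% of the pairs and held 5.72% and 5.55% of these counts, or 919025 and 838266. Of its pairs, 42 were at 0 in replicate 1 and 41 in replicate 2, and 15 were at 0 in both, where 3 counts is the limit that a count of 0 allows. The median pair of the interval had 60 and 59 counts, against 105 and 95 over all pairs. Across the pairs of the interval, which share fragments and are not independent, Spearman's rho between libraries was 0.87 for counts. With 2 libraries an exact two-sided sign test cannot give a p below 0.5, so values are given for each library and no difference was tested over samples.

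Most ligation products of the interval joined it to itself or to the constant side. Constant-side pairs held 52.3% ± 0.851 (SD, n = 2) of its counts, pairs inside it 39.8% ± 0.819 and VH-side pairs 7.89% ± 0.0319, although the VH side made up 70.7% of the pairs. Much of this came from 4 pairs whose fragments share a HindIII site. F84-R83 at the lower bound had 293692 and 268252 counts in replicates 1 and 2. Inside the window, F86-R85 had 279113 and 247958 counts, F84-R85 had 69748 and 63225, and F91-R90 had 2725 and 2666. In pairs of this kind, a product of incomplete cutting or of religation looks the same as a contact, so they are left out of the counts and means below unless stated. Without them the constant side held 67.4% ± 1.499, the inside 6.48% ± 0.920 and the VH side 26.1% ± 0.579.

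The 10 fragments differed widely among themselves in how many products they gave, and in both libraries the highest and the lowest were the same. F115 had the highest counts, with a median of 252 and 266.5 counts per pair in replicates 1 and 2. It alone held 44.6% and 45.3% of all counts of the interval. F117, the next fragment toward the VH genes, had the lowest, with a median of 5 and 3 counts and 21 and 24 of 108 pairs at 0. Among the other 8, medians ran from 22 to 109 counts. R90 had 109 and 107, R106 had 97.5 and 58.5, F103 had 84.5 and 62.5, F84 had 83 and 76.5, R85 had 74 and 64.5, and F91 had 58 and 66. F86 had 25 and 22, and R94 had 25.5 and 25. R106, the fragment with the widest gap between libraries among the better covered ones, was lower in replicate 2, while F91 was higher there.

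**Figure D1:**
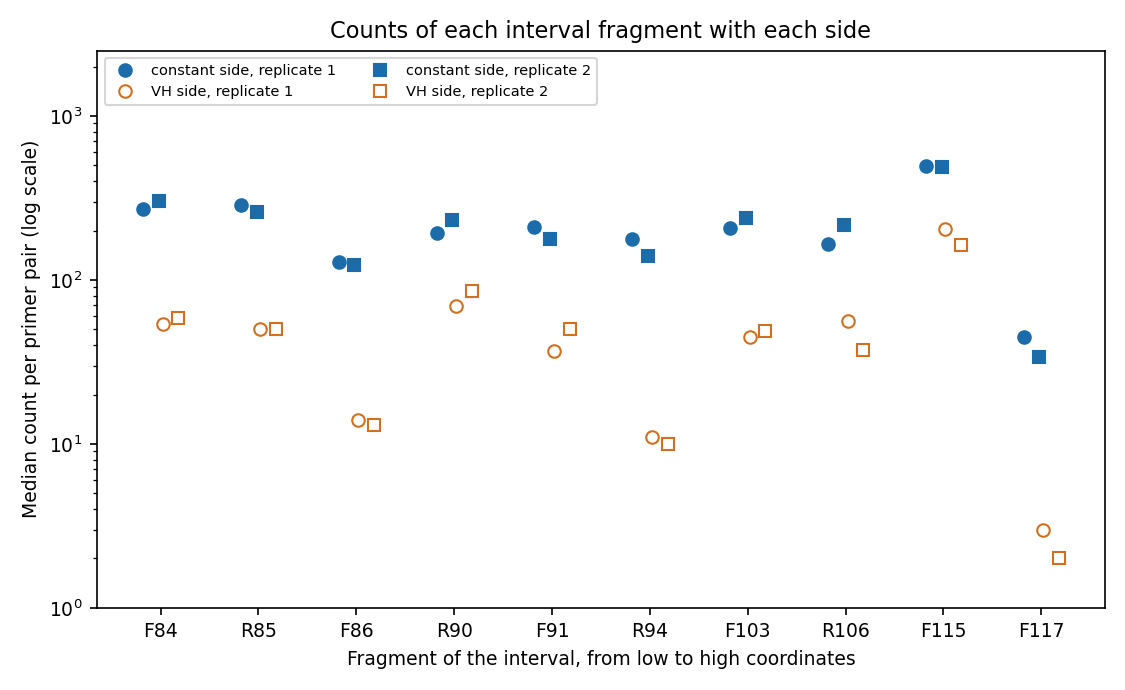
Median count per primer pair (log scale) of each interval fragment with constant-side partners (filled) and VH-side partners (open), for replicate 1 (circles) and replicate 2 (squares), without pairs that share a HindIII site. Every fragment has the higher median on the constant side, which is also the nearer side, and F115 lies above and F117 below all others on both sides.

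To compare pairs at different distances, a contact excess was computed as log2(count + 1) minus its smooth trend on distance over all pairs of the library, so that 0 is the usual level at that distance. Averaged over its pairs, the excess was below 0 in both libraries for 9 of the 10 fragments of the interval, where 43.2% of all 206 fragments had this. Only F115 was above 0, at 1.35 and 1.44. The other 9 ran from -3.63 and -3.68 for F117 to -0.26 and -0.14 for R90. The median fragment of the interval stood at -0.58 in each library, against 0.78 and 0.77 on the constant side and -0.03 and -0.13 on the VH side. F117 ranked last of the 98 forward fragments and F115 ranked 12 from the top. R94 ranked 95 and R90 62 of the 108 reverse fragments. These levels hold both how efficiently a primer works and how often its fragment meets the rest of the locus, and the data do not separate them. A second value, the primer-corrected excess, therefore removes the mean level of each forward and each reverse primer. It shows what is specific to a pair, and it also removes any contact that a fragment makes with the whole locus. The libraries agreed less on this scale. Over the 1016 pairs of the interval, Spearman's rho between them was 0.53 for the primer-corrected excess, against 0.87 for counts.

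The counts of the interval with both sides were first set side by side at like distance. Between 200 and 332 kb the median pair had 167.5 and 143.5 counts with the constant side (98 pairs) and 157 and 124.5 with the VH side (30 pairs). Between 100 and 200 kb it had 272 and 276 with the constant side and 220.5 and 109.5 with the VH side. From 50 to 100 kb the order was turned, at 251 and 242 for the constant side (27 pairs) and 437.5 and 287.5 for the VH side (8 pairs). From 20 to 50 kb the constant side was far higher, at 382 and 295 (19 pairs) against 22 and 17 with the VH side, which has only 4 pairs there. The constant side thus had the higher median in 3 of these 4 distance bins, and the VH side from 50 to 100 kb. Beyond 1 Mb, where only VH partners remain, the median pair had 26 and 28 counts up to 2 Mb and 31.5 and 29.5 further out. Constant-side fragments had 100 and 98 counts with the VH side at 1 to 2 Mb, and 126.5 and 119 beyond.

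**Figure D2:**
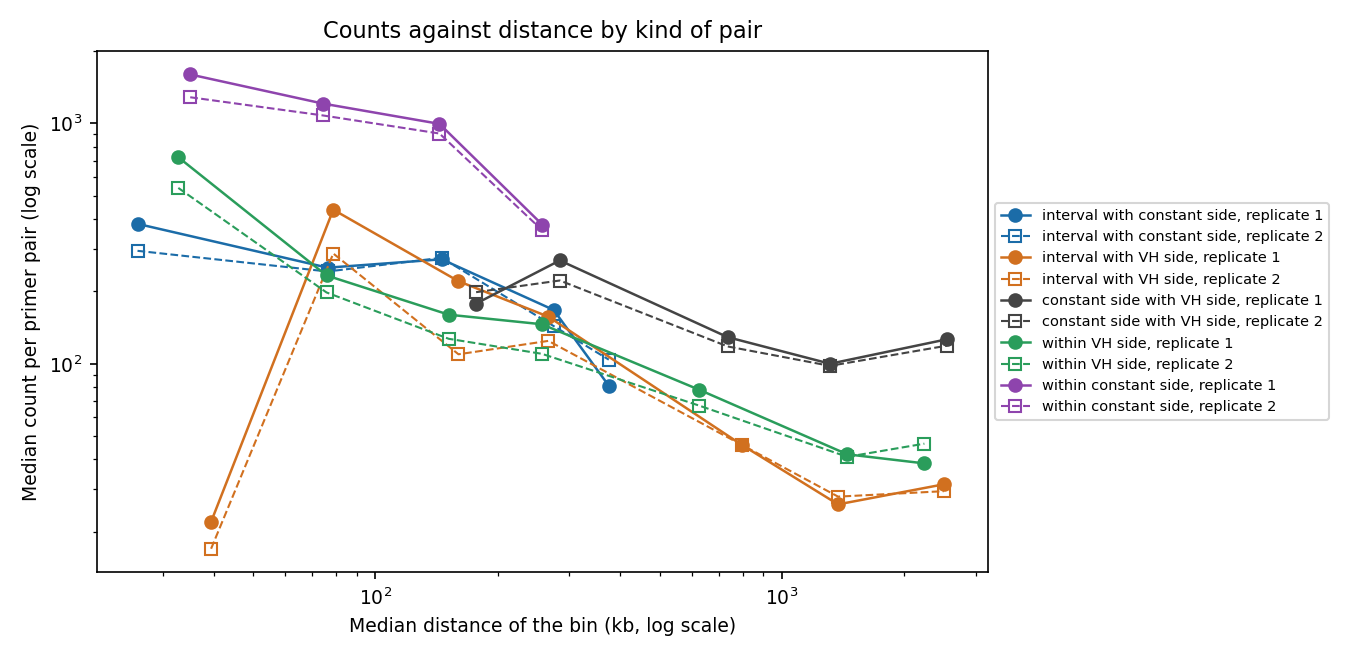
Median count per primer pair against the median distance of each distance bin (both axes log scale) for the interval with the constant side, the interval with the VH side, the constant side with the VH side, and pairs within each side. Filled circles and solid lines are replicate 1, open squares and dashed lines replicate 2. Beyond 332 kb the interval's VH-side pairs lie below the constant side's pairs with the VH side in both libraries, and the lowest point of the interval with the VH side, under 50 kb, rests on 4 pairs.

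The main question of position is whether the interval leans to the constant side or to the VH side at matched distance. It was compared over pairs from 20 to 332 kb, the reach of the constant side below the window, as the mean excess with the constant side minus that with the VH side for each fragment. The uncorrected difference, averaged over the 10 fragments, was 0.43 ± 0.20 (SD, n = 2), with 0.29 in replicate 1 and 0.57 in replicate 2, so that the constant side was higher. After primer correction it was -0.76 ± 0.17, with -0.89 and -0.64, so that the VH side was higher. The direction therefore changed with the treatment of primer levels, in both libraries alike.

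Fragment by fragment, the uncorrected difference had one direction for forward primers and was mixed for reverse ones. All 6 forward fragments leaned to the constant side in both libraries, by 1.05 ± 0.27 on average. It was 1.46 and 2.36 for F86, 1.49 and 2.00 for F117, 0.81 and 0.99 for F84, 0.81 and 0.82 for F115, 0.27 and 0.81 for F103 and 0.29 and 0.45 for F91. Of the 4 reverse fragments, R90 (-2.07 and -1.58) and R85 (-0.88 and -0.91) leaned to the VH side, R94 (0.75 and 0.79) to the constant side, and R106 was close to 0 (0.02 and -0.01). F84 and R85, which are neighbours sharing a HindIII site, thus pointed in opposite directions. Forward and reverse fragments were read against different partners, and a reverse fragment had only 3 or 4 VH-side partners in this range. Those partners differed in level before the interval was considered. In pairs with no end in the interval, the reverse partners on the constant side had a mean excess of 1.01 and 1.08, and the 10 on the VH side had -0.29 and -0.25. For forward partners the levels were 0.62 and 0.68 against -0.29 and -0.24.

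With those levels removed, 8 of the 10 fragments had the higher value on the VH side in both libraries, and none had it on the constant side in both. R90 had the widest difference, at -2.42 and -1.95, followed by R85 (-1.31 and -1.36) and F91 (-1.29 and -1.20). F103 had -1.03 and -0.53, R106 -0.83 and -0.84, F84 -0.79 and -0.66 and F115 -0.77 and -0.81. R94 was close to 0, at -0.11 and -0.06. The libraries disagreed in sign for F86 (-0.23 and 0.62) and F117 (-0.09 and 0.38), which have low counts. F84 and R85 now pointed the same way, and forward and reverse fragments both averaged below 0, at -0.53 ± 0.23 and -1.11 ± 0.08.

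**Figure D3:**
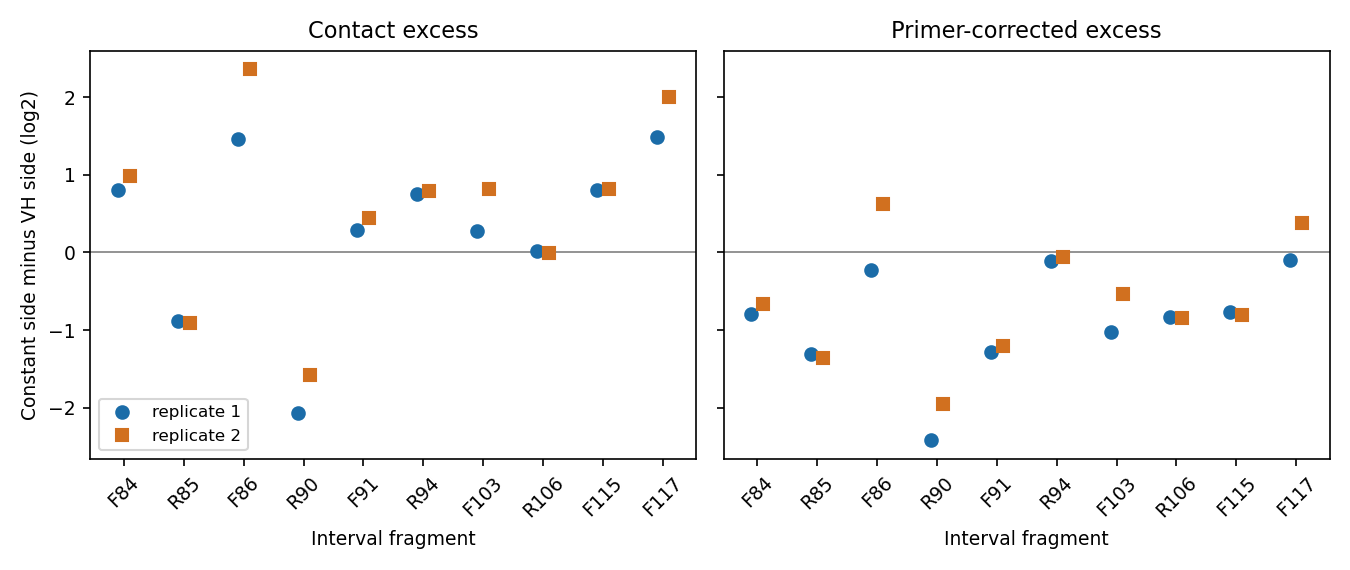
Mean contact excess with the constant side minus that with the VH side (log2) for each interval fragment, over pairs from 20 to 332 kb, before (left) and after (right) removal of primer levels. Circles are replicate 1 and squares replicate 2. Before correction the 6 forward fragments and R94 lie above 0 in both libraries, and after it no fragment does.

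The same was asked with a threshold over all fragments. A fragment was counted as leaning when its mean excess toward lower coordinates differed from that toward higher coordinates by 0.5 or more, in the same direction in both libraries, partners inside the interval included. Before correction 6 of the 10 leaned to lower coordinates (F84, F86, F91, R94, F115 and F117), where 36.6% of the 186 fragments with enough pairs did. R90 alone leaned to higher coordinates, where 21.5% did. The uncorrected lean to lower coordinates was not particular to the interval. Every constant-side fragment from F49 to F82 had it, as did R129, F130, R131, R153, F158 and R161 on the VH side. R83, R125 and R137, also near the window, did not. After correction 0 of 10 leaned to lower coordinates, against 17.2% of all, and 6 leaned to higher ones (F84, R85, R90, F91, R106 and F115), against 22%. The median lean of the interval was then -0.72 and -0.66, and that of all fragments -0.01 and 0.02.

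The lower corrected level on the constant side lay mainly with the partners nearest to the interval. With the 14 constant-side fragments within 50 kb below the window, the mean primer-corrected excess was -0.82 and -0.74 over 69 pairs. It was -0.26 and -0.26 with partners from 50 to 150 kb below it, 0.21 and 0.15 from 150 to 250 kb, and -0.07 and 0.02 further down. On the primer-corrected scale the interval thus had its lowest level with the partners next to it and its highest in the middle of the constant side. Median counts had another order, at 288 and 283 within 50 kb and 93 and 116.5 in the farthest step. The same partners seen from the nearest 500 kb of the VH side gave 0.07 and 0.09 within 50 kb of the window and 0.46 and 0.52 from 150 to 250 kb. The step nearest to the window was the lowest for both, and it lay below 0 only for the interval. The VH side sees these partners from farther away, so the levels are not at like distance. At short distance the trend also takes in the pairs that share a HindIII site. A low level at short distance was not particular to the constant side. From 20 to 50 kb the mean primer-corrected excess was -1.10 and -1.21 with the constant side (19 pairs). With the VH side it was -0.95 and -0.98 there, over only 4 pairs. Of single partners, R79 (114662159 to 114664063) had the lowest mean level with the interval, at -1.20 and -2.16. F78 (114659959 to 114662158), its neighbour, had -1.31 and -1.25, and F71 (114649352 to 114649657) had -0.97 and -1.38.

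The highest constant-side partners by the same measure lay far from the interval. R15 (114395287 to 114399192), 274 kb below the window, had a mean primer-corrected excess of 0.63 and 1.03 over 6 pairs, of which 4 were above 0 in both libraries. R29 (114474053 to 114474922), 197 kb below it, had 0.84 and 0.72, also with 4 of 6. F23 had 0.53 and 0.77 from median counts of only 29 and 23.5, F36 had 0.44 and 0.85, and R4, close to the low end of the assayed region, had 0.41 and 0.55. None of these reached the level of the highest VH-side partners.

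On the VH side the contacts of the interval stood highest, relative to distance and primer levels, in the part nearest to it. In the nearest 500 kb of partners the mean primer-corrected excess was 0.69 and 0.51 over 112 pairs, and in the next 500 kb 0.25 and 0.31. It was -0.13 and -0.07 in the third step and -0.66 and -0.59 in the fourth, and stayed below 0 in the last 2 steps (-0.18 and -0.10, then -0.13 and -0.52). The median count was 122.5 and 107.5 in the first step, 22 and 22.5 in the fifth and 59.5 and 59.5 in the last, so neither measure fell evenly along the VH side. R235 (115225314 to 115233376), 558 kb above the lower bound, was the highest partner, at 1.41 and 1.26 over 6 pairs with 5 above 0 in both libraries. Its counts were 972 and 658 with F103, 364 and 315 with F84 and 371 and 204 with F91, but 7 and 6 with F117. F130 (114838820 to 114840677), the VH-side forward fragment nearest to the interval, had 1.23 and 1.18, with all 4 of its pairs above 0 in both libraries. R249 (115259493 to 115262224), close to R235, had 1.14 and 1.199. F165 (114973711 to 114977500) had 1.06 and 1.14, and F272 (115362252 to 115363989) had 1.42 and 0.71. The lowest partners lay far along this side, with F634 at -1.86 and -1.44, F842 at -1.55 and -1.54 and F611 at -1.08 and -1.97. F842 lies close to the upper end of the assayed region and may lie past the VH genes.

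**Figure D4:**
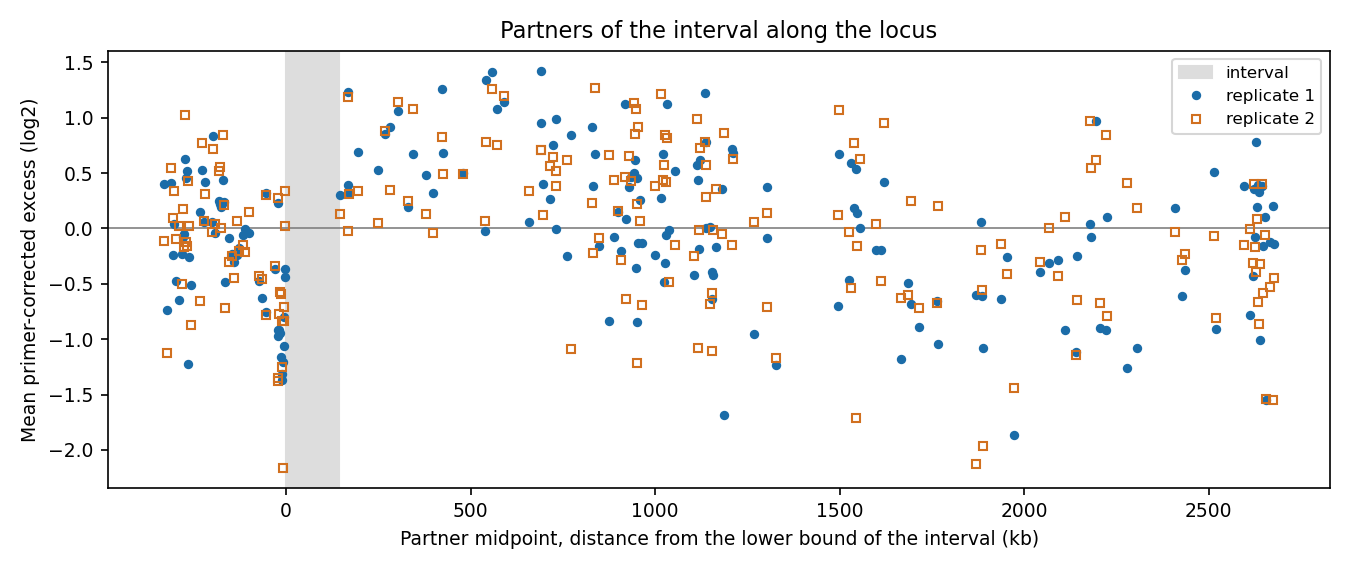
Mean primer-corrected excess (log2) of each partner fragment with the interval, against the distance of the partner's midpoint from the lower bound of the interval (kb), for replicate 1 (filled circles) and replicate 2 (open squares). The shaded band is the interval. Partners within 50 kb below the band average -0.82 and -0.74, and those in the first 500 kb of the VH side 0.69 and 0.51. Of the former, R70 is above 0 in both libraries (0.23 and 0.27) and the nearest, R83 and F82, in replicate 2. R70 has 4.69 and 4.72 with F115 and 0.45 and 0.58 with F117. With F84, F86, F91 and F103 it is below 0 in both libraries.

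A raised level with the nearest VH fragments was not particular to the interval. Fragments of the constant side, which meet the VH side across the interval, were compared with it over the distances that both hold. These are mm9 distances. A deletion between joined segments would shorten them for pairs of the constant side that span it, so such alleles are not matched. From 149 to 332 kb, VH-side fragments had a mean primer-corrected excess of 0.58 and 0.39 with the interval (44 pairs) and of 0.47 and 0.46 with the constant side (99 pairs). The difference was 0.02 ± 0.13 (SD, n = 2) and changed sign between the libraries. Before correction the interval was lower, by -1.16 ± 0.14. Over the whole range from 149 to 2677 kb the uncorrected difference was -1.82 ± 0.02, from mean excesses of -1.19 and -1.14 for the interval (698 pairs) and 0.64 and 0.66 for the constant side (3470 pairs). The median count of those pairs of the interval was 36 in each library. After correction it was -0.10 ± 0.01. The uncorrected difference was far larger than its spread between libraries. How much was left depended on the correction, with -0.54 by iterative correction and -1.03 with only partner levels removed.

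Few pairs of the interval met the criterion of detection in both libraries. A pair was called when its count stood 2 or more standardised units (z) above the trend of counts on distance in each library, which 1.45% of all pairs did. In the interval 4 of 1016 pairs did (0.394%): 2 of 274 with the constant side, 2 of 718 with the VH side and 0 of 24 inside. With primer levels removed first, 20 of 1016 did (1.97%), where 1.2% of all pairs did: 4 with the constant side, 12 with the VH side and 4 inside. The interval was thus below the level of all pairs before and above it after correction. Before correction the threshold was hard to reach at short distance, where the spread took in pairs that share a HindIII site. Even F86-R85, with 279113 and 247958 counts, had z of 0.95 and 0.78. The 0 of 24 inside therefore says little about contacts there. Pairs called on the corrected scale can have few counts. Of the 19 that share no HindIII site, 3 had fewer than 100 counts in each library, and 7 had counts below those expected at their distance.

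F115-R70, 134 kb apart across the lower bound, had by far the highest count over expectation of any pair of the interval that shares no HindIII site, and was called before and after primer correction. It had 67298 and 66759 counts, or 76.8 ± 5.99 times those expected (SD, n = 2), and a primer-corrected excess of 4.69 and 4.72. R70 ran from 114647312 to 114649351. The neighbouring reverse fragments did not share this count. F115 had 482 and 440 counts with R61 and 444 and 181 with R73. Seen from R70, the other forward fragments of the interval had 1239 and 954 counts (F84), 849 and 691 (F86), 598 and 868 (F91), 394 and 417 (F103) and 106 and 103 (F117). The single pair made up 55.2% and 57.5% of the counts of F115 and 37.1% and 38.1% of all constant-side counts of the interval. Without this pair, left out after its value was seen, the constant side held 56.3% of the counts of the interval and the VH side 35.0%, and the uncorrected side difference was 0.40.

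F115 was an end of 2 more called pairs, F115-R33 and F115-R235. F115-R33, 294 kb apart on the constant side, had 4362 and 4642 counts, 11.7 and 13.8 times those expected. F115-R235, 447 kb apart on the VH side, had 1330 and 1225 counts, 5.58 and 5.68 times those expected. Both lost their calls with primer levels removed, when their corrected z was 0.34 and 0.41 and 1.21 and 1.16. R33 was also high with most other forward fragments of the interval, with 1273 and 864 counts for F84 and 1055 and 1114 for F103. The highest VH-side count of F115 was with R137, 83.9 kb away, at 4315 and 3104.

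F329-R90 was the strongest pair with the VH side. F329 (115586578 to 115589686) and R90 lay 905 kb apart and had 1359 and 881 counts, 10.02 and 6.80 times those expected. It was called on both scales, with a corrected excess of 3.72 and 3.12. The neighbours of F329 were also above 0 with R90 after correction, at 1.14 and 2.19 for F324 and 1.42 and 1.74 for F334, from 58 and 98 and from 324 and 406 counts. The other reverse fragments of the interval had far fewer counts with F329, at 45 and 16 for R85, 37 and 27 for R94 and 231 and 149 for R106. R90 was raised with F371, 1020 kb away, too, with 373 and 446 counts and a corrected excess of 3.01 and 3.54.

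Inside the interval, F103-R85 stood out. These fragments lie 74.5 kb apart, R85 near the JH end and F103 in the middle of the window, and had 5510 and 4705 counts. That was 3.51 and 3.55 times those expected, and the primer-corrected excess of 4.77 and 4.72 was the highest of all pairs of the interval that share no HindIII site. R85 had 890 and 773 counts with F91, which is much closer to it, and 348 and 498 with F115. F103 had 284 and 156 counts with R90 and 323 and 305 with R94, both of them nearer than R85. The pair missed the uncorrected threshold, with z of 0.64 in each library. The spread used for z was smoothed over a wide range of distances and took in the pairs that share a HindIII site. Inside the window, 2 more pairs were called after correction, F115-R94 (1791 and 1279 counts) and F117-R90 (132 and 167 counts). Both lay below the counts expected at their distance, at 0.76 and 0.63 times for F115-R94 and 0.12 and 0.18 times for F117-R90. The fourth, F86-R85, shares a HindIII site.

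Other pairs of the interval with a high primer-corrected excess had moderate counts. On the constant side, F86-R15 had 1449 and 1435 counts at 279 kb (3.55 and 3.77), F84-R29 had 1207 and 1061 at 197 kb (2.46 and 2.54) and F117-R48 had 413 and 353 at 234 kb (3.19 and 3.55). All 3 were called on the corrected scale, whereas F117-R1, next in order, rested on 42 and 17 counts and was not. F86-R15 had 3.64 and 3.98 times the counts expected at its distance and F84-R29 1.91 and 1.85 times. F117-R48 lay below those expected, at 0.80 and 0.76 times. On the VH side, F103-R831 joined fragments 2558 kb apart with 929 and 1023 counts, 5.21 and 5.65 times those expected, and a corrected excess of 3.23 and 3.30. F86-R339 had 402 and 339 counts at 941 kb (3.14 and 3.09), and F103-R365 had 273 and 462 at 942 kb (2.69 and 3.51). F103 was an end of 5 of the 19 pairs called on this scale, F117 and R90 of 4 each and F86 of 3.

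Contacts that cross a position were followed along the locus as the mean excess of pairs that span a gap between neighbouring fragments, with both fragments within 250 kb of it. Before correction the level was -0.09 and 0.03 at its lower bound, rose to 0.39 and 0.48 between R94 and F103, and was -0.13 and -0.03 between F115 and F117. All 11 gaps of the interval lay above the median of the 204 gaps of the locus, -0.14. After correction the level had a local low just below the window, at -0.10 and -0.08 between F80 and R81. It then rose through the DH end to 0.42 and 0.43 between F91 and R94 and was 0.36 and 0.33 at the upper bound, between F117 and R125. The interval thus held values in the upper part of the range of the locus, with ranks from 140 to 190 of 204 from the lowest. This was not particular to it. The gaps just above ranked alike, at 179 between R125 and R129 and 178 between R129 and F130. On the constant side, the gap between F54 and R55 ranked 176, and that between F82 and R83, next to the window, 106. Neighbouring gaps share many pairs, some with no end in the interval. With a window of 150 kb the uncorrected values at all 11 gaps were below 0, and 6 of them lay above the median of the locus. The corrected ones still rose from -0.47 at the lower bound to 0.40 between F115 and F117. With 250 kb, all 11 corrected values of the interval were above 0 in both libraries.

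**Figure D5:**
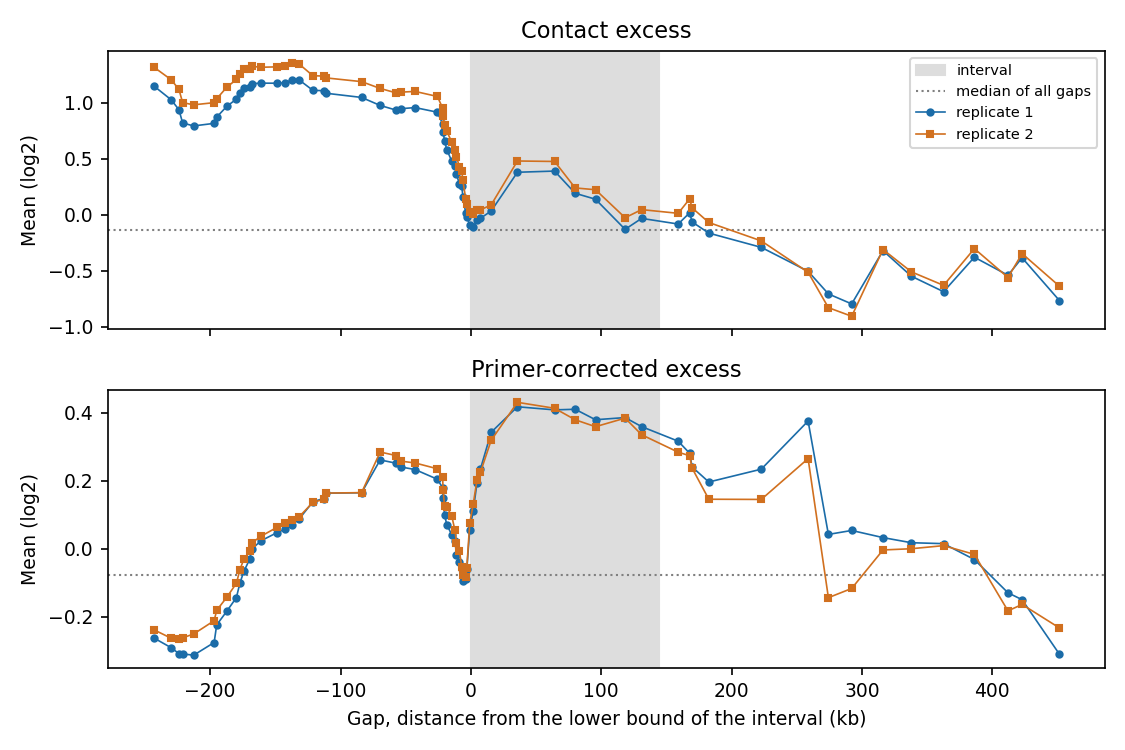
Mean excess (log2) of pairs that span each gap between neighbouring fragments, both within 250 kb of it, against distance from the lower bound of the interval (kb), before (top) and after (bottom) removal of primer levels. Circles are replicate 1, squares replicate 2, the shaded band is the interval and the dotted line the median of all 204 gaps. After correction the lowest point near the band, -0.10 and -0.08, lies just below it, and the level inside reaches 0.42 and 0.43.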

How the data were processed

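The authors deposited counts of ligation products per forward and reverse primer pair, as my5C all-by-all matrices with a step named transpurge, per the file headers. The submitters' processing notes name Novoalign and mm9. Neither gives versions or settings, and whether fragment coverage was corrected is not stated.

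Fits ran on all 10584 pairs of each library with LOWESS on log10 midpoint distance (span 0.2, no robustness steps, statsmodels 0.14.6, zeros kept). z is the residual of the count over the square root of the smoothed squared residual. The contact excess used log2(count + 1). Primer levels were fitted by least squares without the 81 pairs that share a HindIII site. Fragments needed 3 pairs on each side, and gaps 10. Named items were the 10 fragments, the called pairs, the 5 highest corrected pairs and partners of each side, and the extreme gaps. Other items named were picked with their values in view. The contact excess, the primer correction, the side difference and the calls on the corrected scale were first tested on simulated data. The lean, crossing-contact, iterative-correction and VH-side comparison steps were not. Alternatives changed thresholds, trend, pseudocount, primer correction, pair sets and windows.

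Members and lists were chosen with earlier results of these data known. No chance test was made. Primer pairs of the chromosome 5 gene desert were not analysed here, and no mm9 sequence was used here. Reads carry no stated molecular identifiers, so limits from counts cover counting error only.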

Additional observations from a re-analysis of the deposited data

How the results depend on the processing

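The side on which the interval had more contacts changed with the treatment of primer levels. The mean difference of the constant side minus the VH side, 0.43, was -0.76 with primer levels removed, -0.80 with only partner levels from pairs outside the interval removed, and -1.18 with iterative correction. It was 1.06 from 20 to 150 kb, 0.76 as a median, 0.18 as mean z, 0.21 without the fragment nearest each bound, and 0.29 to 0.57 in single replicates. Without F115 and F117, an alternative chosen after seeing the data, it was 0.22. Forward and reverse corrections remove whole-fragment levels by construction, so primer efficiency, copy number and contacts with the whole locus cannot be told apart.

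The level of VH-side pairs in the interval minus that in the constant side, was -1.82. Primer-corrected and only up to 332 kb it changed sign between the libraries, with 0.12 and -0.07. It was -1.91 and -1.52 with pseudocounts of 0.5 and 5, -1.79 with 20 distance bins, -1.68 as a median, -1.34 with at least 10 counts, -0.38 as mean z and -1.52 without the fragment nearest each bound. It was -0.10 with primer levels removed, -1.03 with partner levels removed, -0.54 with iterative correction, -1.74 without F115 and F117 (chosen after seeing the data), and -1.83 to -1.80 in single replicates. From 20 to 150 kb it gave no value, since too few pairs lie there.

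The 4 called pairs became 8 with a z threshold of 1.5, 2 with z of log2 counts, 20 with primer levels removed, 11 with iterative correction, and 6 to 7 in single replicates. Over all pairs the share called was 1.45% in the main setting and 1.2% with primer levels removed. It is not given for the other settings, so their counts cannot be set against a general rate. The 6 fragments that leaned to lower coordinates became 2 at a threshold of 1, 0 with primer levels removed and 6 to 7 in single replicates. For higher coordinates, 1 became 0, 6 and 1 to 2, and 2 with at least 10 counts. Over all 186 fragments, 36.6% leaned to lower and 21.5% to higher coordinates in the main setting. With primer levels removed, 17.2% and 22% did. Shares over all fragments are not given for the other settings.

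The shares of the constant side, the inside and the VH side were 67.4%, 6.48% and 26.1% without pairs that share a site, and 56.3%, 8.67% and 35.0% without F115-R70 as well (chosen after seeing the data). They were 38.5%, 14.5% and 47.0% with iterative correction and 39.6%, 49.5% and 10.8% without the fragment nearest each bound. In single replicates they ran from 51.7% to 52.9%, 39.2% to 40.4% and 7.86% to 7.91%.

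Crossing contacts at the gap between R94 and F103, 0.43, were -0.32 with a window of 150 kb, 0.67 with 500 kb, and 0.39 to 0.48 in single replicates. Between F115 and F117, -0.08 became -0.39, 0.65 and -0.13 to -0.03, and 0.38 with primer levels removed. With both changed, chosen after seeing the data, the first gap had 0.15 and 0.34 and the second 0.40 and 0.40.

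No paired analysis was possible because both libraries belong to 1 group. With 2 libraries, no test over samples was made, and F117, with 21 and 24 pairs at 0, is the fragment whose values depth limits most.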
